A study of Saccharomyces cerevisiae with 4 samples.

Results

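The 10 genes described here encode the enzymes that methylate histone H3 in budding yeast (Saccharomyces cerevisiae) and the partners of one of them. They were chosen by name and not by a measured value, though with earlier results of these data known. SET1, SWD1, SWD2, SWD3, BRE2, SPP1, SDC1 and SHG1 make up COMPASS, the complex around the methyltransferase Set1. The other 2, DOT1 and SET2, are separate methyltransferase genes. The members are 10 of the 5500 reading frames in the value table. Of the 10, 5 had a value on all 4 arrays, 4 had values on some arrays only, and SDC1 had none.

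The study set polyadenylated RNA of a strain named bre1 against that of wild type on 4 2-colour microarrays, each giving 1 log ratio per reading frame. The bre1 RNA was labelled with the dye Cy3 on arrays 1 and 3 and with Cy5 on arrays 2 and 4, the wild-type RNA taking the other dye each time. The labels give neither the kind of bre1 mutation nor the strain background, growth, mating type or number of cultures, so a p-value here reflects the spread of these 4 arrays, which may be a technical spread. BRE1 itself had log2 ratios of -1.65 on array 1 and -3.17 on array 3 and no value on arrays 2 and 4. Ratios are given here as bre1 over wild type, since the descriptions put bre1 first and these BRE1 values were low. That direction is likely and not settled, the log base was read as 2, and on the opposite reading every sign below would turn.

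Bre1 is the ubiquitin ligase that, with Rad6, attaches ubiquitin to histone H2B. In yeast this mark is required for full methylation of H3K4 by Set1 and of H3K79 by Dot1, whereas methylation of H3K36 by Set2 does not depend on it. Set1 acts only within COMPASS: Swd1 and Swd3 are WD40-repeat proteins of its core, Bre2 and Sdc1 bind each other and promote its activity, Spp1 carries a PHD finger that binds methylated H3K4, Shg1 is a small peripheral subunit, and Swd2 is an essential WD40-repeat protein that also belongs to the cleavage and polyadenylation factor. The question put to these data is whether the transcripts of the methylation enzymes that lie downstream of Bre1 differed between bre1 and wild type.

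None of the 5 members that could be tested passed the threshold in either direction, SET1, SWD1, SWD2 and SPP1 of COMPASS and SET2. The test was limma's, of a mean log2 ratio other than 0, and the threshold a Benjamini-Hochberg adjusted p under 0.05 over the 3840 genes with 4 values. Over all 3840 genes 10.7% passed, 5.89% higher and 4.79% lower in bre1. At an unadjusted p under 0.05 there were 2 members, SPP1 and SET2, beside 30.2% of all genes. These shares changed when 1 array was left out, which also lowers the power of the test. Of all genes, 54 passed without array 1, none without array 2, 187 without array 3 and 677 without array 4, against 410 with all 4. At an unadjusted p under 0.05 in limma the counts were 720, 815, 1037 and 1274, against 1158. The 2 members at an unadjusted p under 0.05 became 0 without array 1, 2 or 3 and 3 without array 4. The means of the 5 ran from -0.41 for SWD1 to 0.40 for SET2, with a median of -0.04, beside a median of 0.02 over all genes tested. Both ends of that range lay inside the span from -0.70 to 0.71 that held the middle 90% of genes.

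**Figure D1:**
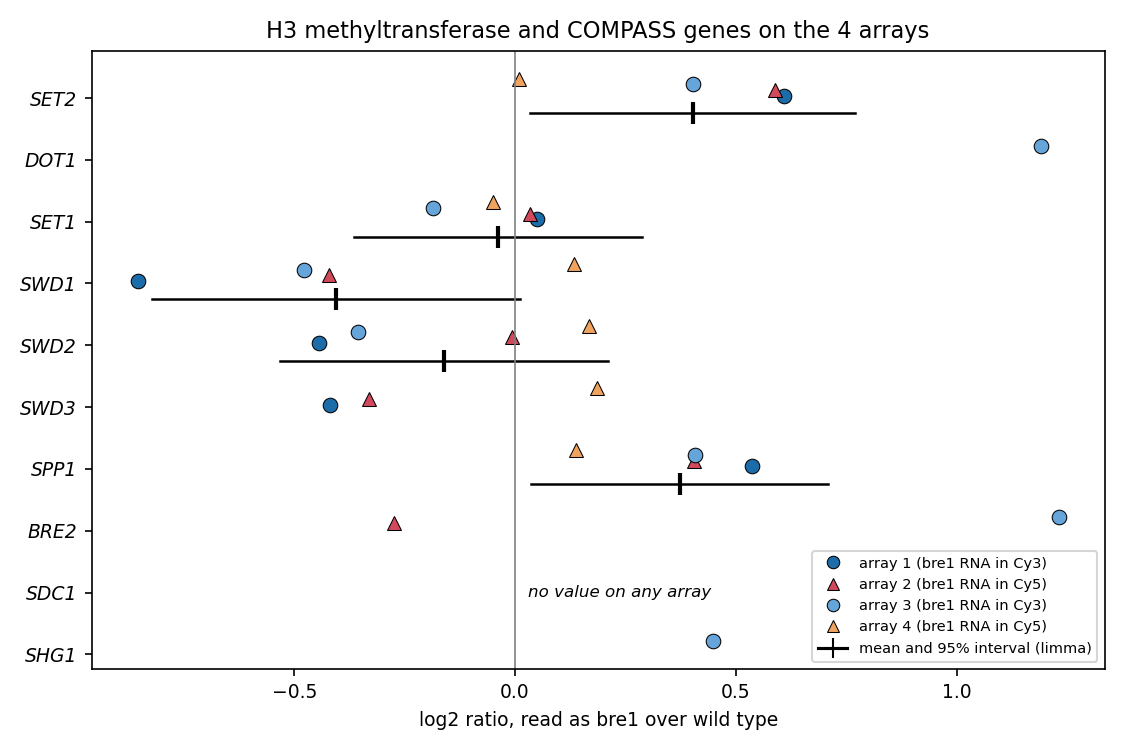
Log2 ratios (x axis, read as bre1 over wild type) of the 10 genes, 1 point per array that gave a value, circles where bre1 RNA carried Cy3 and triangles where it carried Cy5. Black bars are the mean and its 95% interval from limma for the 5 genes with 4 values; SPP1 and SET2 have all 4 points above 0, and array 4 gives the point nearest 0 for both.

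SET1 (YHR119W), which encodes the H3K4 methyltransferase, had the mean closest to 0 of the 5 members tested. Its log2 ratios were 0.05, 0.03, -0.19 and -0.05 on arrays 1 to 4. The values fell on both sides of 0 and spanned 0.24, the narrowest span among the 5 members with 4 values. The mean was -0.04 ± 0.11 (SD, n = 4 arrays), with an adjusted p of 0.877 in limma. The 95% interval of the mean ran from -0.36 to 0.29, which as bre1 over wild type is 0.777-fold to 1.22-fold. The interval is not adjusted for the number of genes tested. A difference in SET1 transcript within it cannot be told from none with these 4 arrays.

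SET2 (YJL168C), which encodes the H3K36 methyltransferase that travels with elongating RNA polymerase II, had the highest mean of the 5. Its log2 ratios were 0.61, 0.59, 0.40 and 0.01 on arrays 1 to 4. All were above 0, and that of array 4 was nearly at it. The mean was 0.40 ± 0.28 (SD, n = 4), or 1.32-fold, with an interval from 0.03 to 0.77 and an adjusted p of 0.135 in limma. SET2 ranked 636 of 3840 genes from the top.

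DOT1 (YDR440W), which encodes the H3K79 methyltransferase, gave a single value, a log2 ratio of 1.19 (2.29-fold) on array 3. That value was at the 98.9th percentile of the 4759 genes measured on array 3. It has no replicate. The 68 genes with a value on array 3 alone had a median of 0.33 there, against -0.08 on the same array for genes with 4 values. DOT1 was the second highest of those 68. The part of this shift in the DOT1 value was not tested, and the value is 1 reading, not a tested difference between the strains.

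Among the WD40-repeat subunits, SWD1 (YAR003W) had the lowest mean of the 5 members tested. Its log2 ratios were -0.85, -0.42, -0.48 and 0.13 on arrays 1 to 4. The first 3 arrays were below 0 and array 4 was above it. The mean was -0.41 ± 0.41 (SD, n = 4), a 1.32-fold lower level in bre1, with an interval from -0.82 to 0.01 and an adjusted p of 0.175 in limma. SWD1 lay at the 10.7th, 18.7th and 16.7th percentiles of the genes measured on arrays 1 to 3 and at the 55.4th on array 4.

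SWD2 (YKL018W), the subunit shared with the cleavage and polyadenylation factor, had log2 ratios of -0.44, -0.01, -0.36 and 0.17. Its values were lowest on the 2 arrays with bre1 RNA in Cy3. They averaged -0.16 ± 0.29 (SD, n = 4, adjusted p = 0.551 in limma, interval -0.53 to 0.21). SWD3 (YBR175W), the third WD40-repeat subunit, had log2 ratios of -0.42, -0.33 and 0.18 on arrays 1, 2 and 4 and none on array 3. Its mean of -0.19 ± 0.33 (SD, n = 3) stood outside the test, which needed 4 values. All 3 of these genes were below 0 on arrays 1 and 2, SWD2 only by 0.01 on array 2, and above 0 on array 4. This shared pattern was seen in the values afterwards. How many of all genes have it was not counted, so it is not a result about these subunits.

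SPP1 (YPL138C), the PHD-finger subunit, ran the other way. Its log2 ratios were 0.54, 0.41, 0.41 and 0.14 on arrays 1 to 4. Its values were all above 0, as were those of SET2, and the other 3 tested members had both signs. Over all genes tested, 35.7% had 1 sign on all 4 arrays, and 19.1% were above 0 on all 4. The mean was 0.37 ± 0.17 (SD, n = 4), or 1.29-fold, with an interval from 0.04 to 0.71 and an adjusted p of 0.132 in limma.

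BRE2 (YLR015W), whose product binds Sdc1 in the complex, had values on 2 arrays that disagreed: a log2 ratio of -0.27 on array 2 and 1.23 on array 3. The first is 0.827-fold and the second 2.35-fold, bre1 over wild type. Of the 181 genes measured on arrays 2 and 3 only, 144 read higher on array 3. The median difference over all 181, array 3 minus array 2, was 0.40, and that of BRE2, 1.51, was the fourth largest. SHG1 (YBR258C) had 1 value, 0.45 on array 3, which was rank 29 of the 68 genes measured there alone. SDC1 (YDR469W), 1 of 474 reading frames without a value on any array, could not be described. Scanner intensities were not analysed here, so whether the missing spots were dim was not tested.

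**Figure D2:**
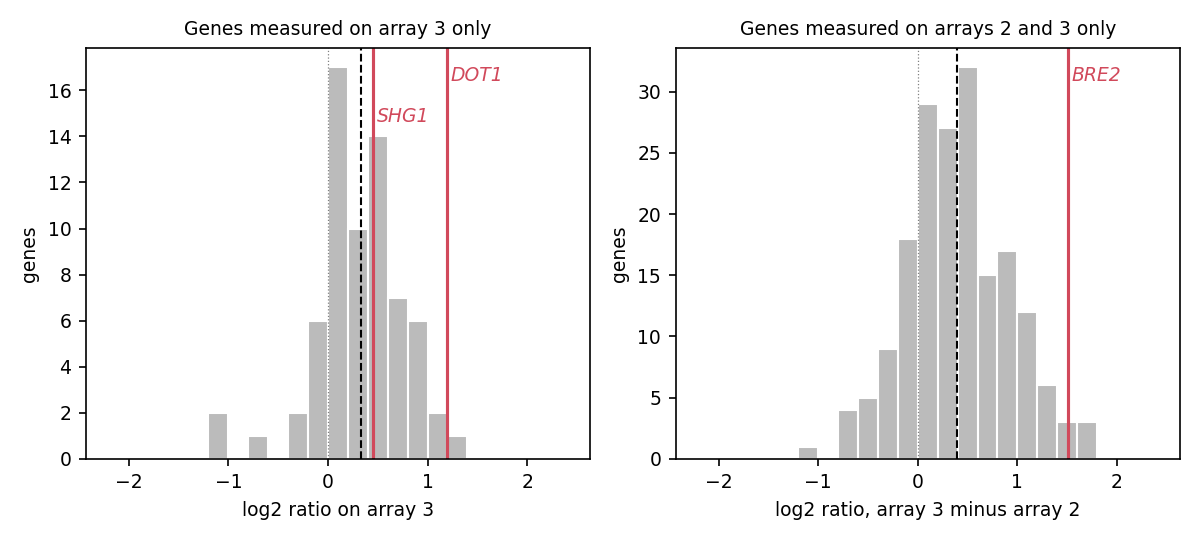
Numbers of genes (y axis) by log2 ratio on array 3 for the 68 genes with a value on array 3 alone (left), and by the difference in log2 ratio between arrays 3 and 2 for the 181 genes measured on those 2 arrays only (right). Dashed lines mark the medians, 0.33 and 0.40; red lines mark SHG1 at 0.45, DOT1 at 1.19 and BRE2 at 1.51.

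The order of the 5 means was SET2, SPP1, SET1, SWD2 and SWD1. Differences between members were taken within each array and tested with an exact two-sided sign-flip permutation test over the 4 arrays, which cannot give a p below 0.125. Of the 10 pairs, 4 differed in the same direction on all 4 arrays and reached that smallest p of 0.125 (adjusted over the 10 pairs, 0.3125). These were SPP1 over SET1, by 0.41 ± 0.17 (SD, n = 4 arrays), SET2 over SET1, by 0.44 ± 0.26, SPP1 over SWD1, by 0.78 ± 0.57, and SWD2 over SWD1, by 0.24 ± 0.20. On array 4 these differences were small: 0.19, 0.06, 0.005 and 0.03, in the same order, so SPP1 and SWD1 were nearly equal there. SET2 and SPP1, neighbours in the order, differed by 0.03 ± 0.13 and changed places between arrays. SET1 and SWD2 differed by 0.12 ± 0.30, less than the spread between arrays. By value alone, SPP1 lay above SET1 on 4 of 4 arrays and SWD1 below it on 3 of 4. The exact sign-flip permutation test cannot pass the threshold with 4 arrays, so it does not establish an order of the members. How often other pairs of genes keep the same direction on all 4 arrays was not tested.

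The distance between the members depended on the array. From the lowest to the highest of the 5, the log2 ratios spanned 1.46 on array 1, 1.01 on array 2 and 0.89 on array 3, each with SWD1 at the bottom. On array 4 they spanned 0.22, with SET1 at the bottom. Over all 3840 genes the SD was 0.67, 0.57, 0.49 and 0.48 on the 4 arrays. The members' span was thus 2.18, 1.79 and 1.82 times the SD on arrays 1 to 3 and 0.455 times on array 4, where the 6 measured members lay between -0.05 and 0.18. The labels give nothing that sets array 4 apart from array 2 beyond its number, and a cause of the difference was not tested.

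**Figure D3:**
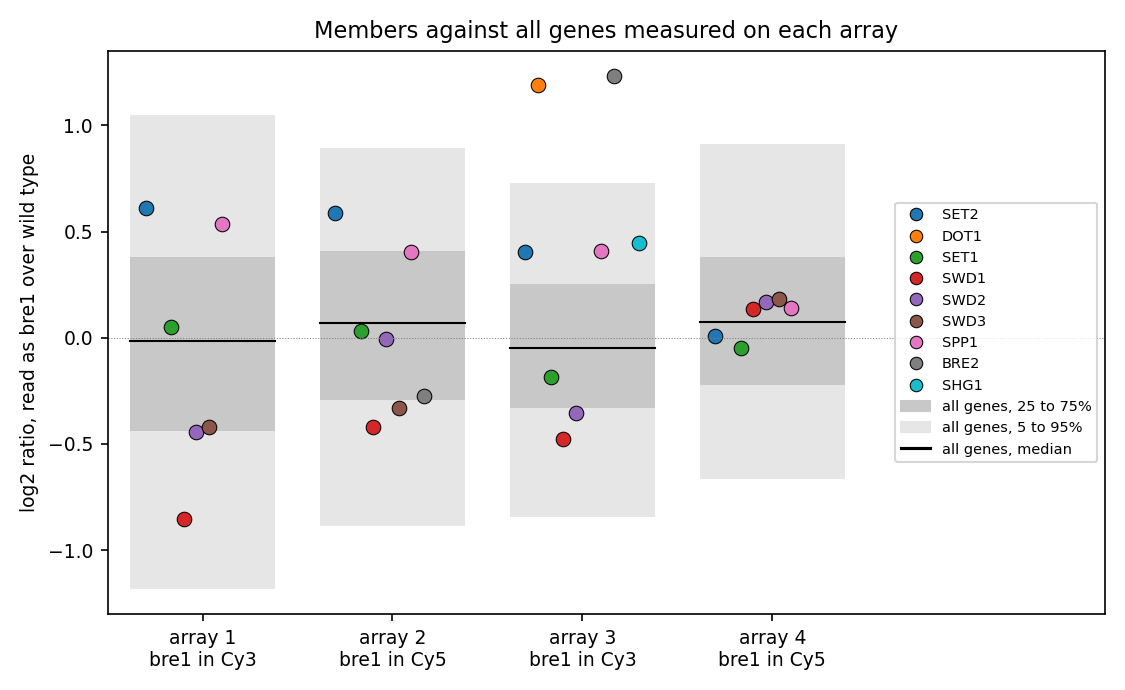
Log2 ratios (y axis, read as bre1 over wild type) of the measured members on each array, as coloured points, over the range of all genes measured there (dark grey, the middle 50%; light grey, the middle 90%; line, the median). The members spread over 1.46 on array 1 and lie together near the median on array 4.

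The members' ratios were next compared between the dye orientations, and no difference passed the threshold. With bre1 RNA in Cy5, SWD1 averaged -0.14, against -0.67 with bre1 RNA in Cy3, and SWD2 averaged 0.08, against -0.40. These differences of 0.52 and 0.48 had adjusted p of 0.377 and 0.334 in limma with a dye term. For SPP1 and SET2 the difference ran the other way, by -0.20 and -0.21 (adjusted p = 0.695 and 0.725 in limma), and for SET1 it was 0.06 (0.912). None of the 5 passed the threshold for the dye difference, beside 0.104% of all genes tested. SWD2, with the smallest p, had an unadjusted p of 0.091 in limma. Over all genes tested, 19.1% had an unadjusted p under 0.05 for the dye difference. With 2 arrays in each orientation, the lack of a call does not show that dye had no effect.

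Each member was set beside the median of the mean log2 ratios of tested genes within 1.2 times its annotated length. A relation between length and ratio over all genes was not tested. The value of SHG1, a gene of 429 bp, stood beside a median of 0.31 for 222 such genes. The other measured members, all of them longer, had medians near 0 beside them. SPP1, at 1062 bp, had a mean of 0.37, beside a median of -0.00 for 828 genes. SET2, at 2202 bp, had 0.40, beside -0.05 for 638 genes. SWD1, at 1281 bp, had -0.41, beside -0.02 for 867 genes, and SET1, at 3243 bp, had -0.04, beside -0.04 for 283 genes. For DOT1, of 1749 bp, the median beside its single value of 1.19 was -0.07. For DOT1 and SHG1 these are unlike measures, since each had 1 value, on array 3, and the medians are of means over 4 arrays. Genes with a value on array 3 alone had a median of 0.33 there. Of the 20 nearest protein-coding neighbours of the 10 members, 11 were tested. None passed in limma (adjusted p from 0.181 to 0.864), beside 10.7% of all genes.

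The genes with the most similar values over the 4 arrays were found by the root mean square difference of log2 ratios among the 3840 genes. For SET1 they were YOX1 (0.03) and YRR1 (0.04), and for SET2 CUE5 (0.08) and MRPL38 (0.09). DOT1 lacked 4 values, and SWD1, the next member with 4, took its place: its nearest genes were YOP1 (0.05) and NMA1 (0.06). YOP1 repeated the SWD1 pattern with log2 ratios of -0.79, -0.41, -0.41 and 0.11, and CUE5 that of SET2 with 0.66, 0.72, 0.44 and 0.05. None of these 6 genes passed the threshold in limma (adjusted p from 0.0991 to 0.966).

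Around the methyltransferases, 84 further genes were listed, a mixed set. It held genes of H3 methylation, its regulation and its readers. It also held genes outside H3 methylation, among them other protein methyltransferases and the cleavage and polyadenylation factor. Of the 84, 61 were tested. Of these, 2 rose and none fell (3.28%, beside 10.7% of all genes), and their median was 0.15. Upstream of Set1 and Dot1, RAD6, the ubiquitin-conjugating enzyme that works with Bre1, rose 1.61-fold (log2 ratios 0.77, 0.58, 0.52 and 0.88, mean 0.69 ± 0.16, SD, n = 4, adjusted p = 0.028 in limma). The RAD6 call was lost without array 1, 2 or 3 (adjusted p = 0.119, 0.106 and 0.0535 in limma) and held without array 4 (0.0375). All 4 arrays gave RAD6 a higher value than any tested member had on the same array except array 2, where SET2 read 0.59. LGE1, the partner of Bre1, had 0.49, 0.23 and -0.42 on arrays 1, 3 and 4, and UBP8, a protease that removes ubiquitin from H2B, had -0.58, -0.29 and 0.09 on arrays 1, 2 and 4. The substrate genes HTB1 and HTB2 had means of 0.16 ± 0.26 and -0.01 ± 0.28.

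The Paf1 complex, which travels with RNA polymerase II and is needed for H2B ubiquitination, had 3 of 5 genes tested and none past the threshold. Of these, CTR9 had the smallest p (mean 0.53 ± 0.20, adjusted p = 0.057 in limma), CDC73 averaged 0.26 ± 0.27 and PAF1 -0.18 ± 0.74. LEO1 averaged 0.12 over 3 arrays and RTF1 had no value. Among the genes of the Jumonji family, which includes H3 demethylases, none of 3 tested passed. JHD2, the H3K4 demethylase, averaged 0.12 ± 0.21, JHD1 -0.09 ± 0.25, and GIS1 had the smallest p (mean -0.34 ± 0.15, adjusted p = 0.156 in limma). RPH1 averaged 0.11 over 3 arrays and ECM5 had no value.

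Of the readers of H3 methylation, none passed in limma. Over all genes tested, 52.6% had a mean above 0 and 30.2% an unadjusted p under 0.05. Of the readers, 6 genes of the Set3 complex, which binds dimethylated H3K4, were tested, all with means above 0 and a median of 0.18, and none had an unadjusted p under 0.05. Of the NuA3 acetyltransferase complex 6 were tested, 5 of them above 0, with a median of 0.24 and 1 at an unadjusted p under 0.05. Of the Rpd3S deacetylase complex, which binds H3K36-methylated nucleosomes, 3 were tested, with means of 0.00 for RPD3, -0.21 for UME1 and 0.35 for EAF3, and 1 at an unadjusted p under 0.05. The cleavage and polyadenylation factor, to which Swd2 also belongs, had 12 genes tested, none past the threshold, 9 above 0 and a median of 0.13, against the SWD2 mean of -0.16.

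Other methyltransferase genes gave no call either, and their counts at an unadjusted p under 0.05 stand beside the same 30.2% of all genes. Of 8 tested genes of other SET-domain proteins, none passed in limma, 2 had an unadjusted p under 0.05, and the means ran from -0.43 to 0.43. Of 11 tested genes of protein methyltransferases outside that family, none passed and 4 had an unadjusted p under 0.05, with means from -0.61 to 0.47. Among the kinases and factors of the Set2 pathway, 2 of 6 genes were tested, and neither passed, with 1 at an unadjusted p under 0.05.

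Of the 4 genes of histones H3 and H4, all tested, 1 rose and none fell, beside 5.89% of all genes higher and 4.79% lower. HHT1 and HHT2, both of which encode histone H3, averaged -0.27 ± 0.61 and 0.41 ± 0.43 and did not pass (adjusted p = 0.455 and 0.180 in limma). HHF2, 1 of the 2 genes of histone H4, rose 1.68-fold (log2 ratios 1.22, 0.57, 0.47 and 0.74, mean 0.75 ± 0.33, SD, n = 4, adjusted p = 0.032 in limma), and HHF1 averaged 0.41 ± 0.31 (adjusted p = 0.140). The HHF2 call was lost without array 1, 2 or 3 (adjusted p = 0.147, 0.106 and 0.0522 in limma) and held without array 4 (0.0302). The 2 genes of each pair encode the same histone, and their sequences were not compared here. Whether a probe reads both was not tested, so neither value can be assigned to 1 gene with certainty.

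**Figure D4:**
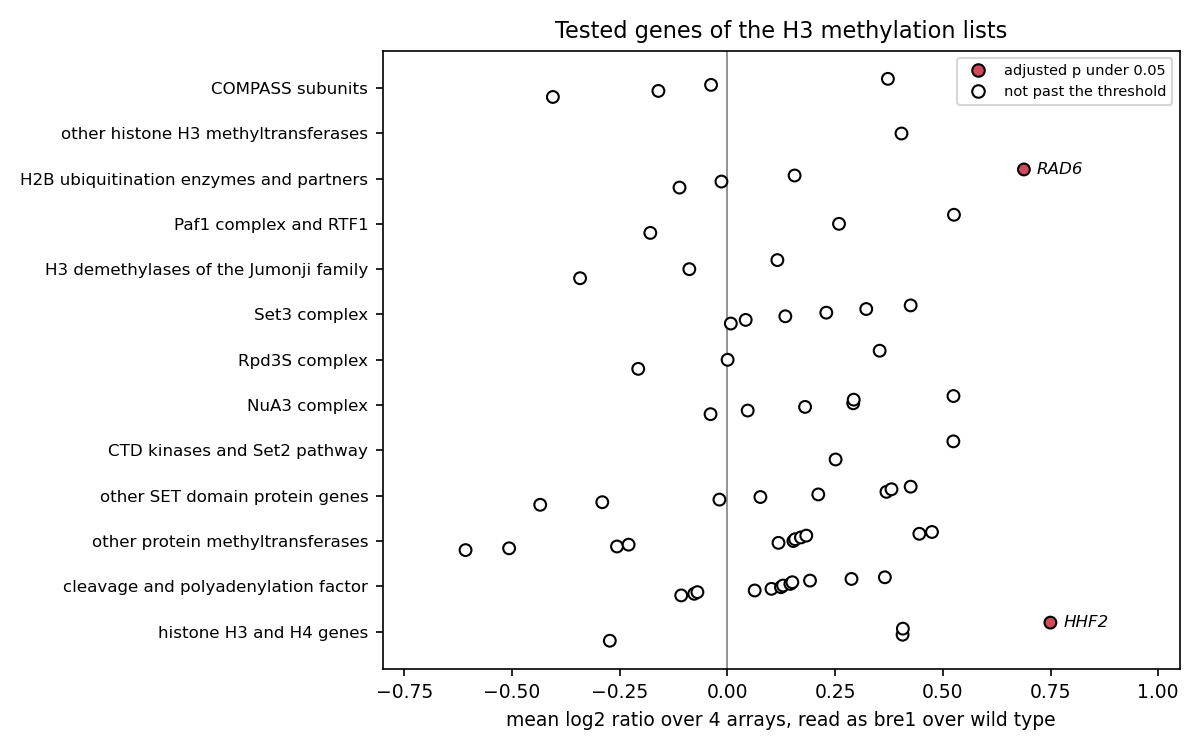
Mean log2 ratio over 4 arrays (x axis, read as bre1 over wild type) of each tested gene, by list (rows); filled points passed an adjusted p under 0.05 in limma and open points did not. RAD6 at 0.69 and HHF2 at 0.75 are the filled points, and the COMPASS subunits lie on both sides of 0, from -0.41 to 0.37.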

How the data were processed

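The deposited log2 ratios, 1 per reading frame and array, are used as the authors deposited them. Their normalization, background correction, spot filter, direction and log base were not given in the sources used here, and base 2 was read from the range of the values. If the arrays were centred, a shift common to all transcripts is invisible. A gene table of assembly R64 gave symbols for 5470 of 5500 reading frames, all members included.

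Genes with 4 values were fitted with limma 3.58.1 (R 4.3.3), using lmFit on an intercept, eBayes, a two-sided test of the mean against 0 and Benjamini-Hochberg adjustment over 3840 genes. Each dye orientation held 2 arrays. Errors are SDs over arrays, whose number limits the precision. The test was tried on simulated data of 3840 genes, 67 of them given a log2 change of 0.5, 67 of 1 and 66 of 2. It recovered 7.46% of genes at 0.5, 67.2% at 1 and 90.9% at 2. Recovery depends on the share of genes changed, which was set there and is unknown for the arrays, so these percentages need not carry over. The means of the tested members, from -0.41 to 0.40, were smaller in size than 0.5. The lack of a call does not show that these transcripts were unchanged. Genes named are the members, BRE1, listed genes past the threshold, listed genes of lists of at most 5, and the 2 nearest in pattern to 3 members; others were named after their values were seen. The members and lists were chosen with earlier results of these data known.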

Additional observations from a re-analysis of the deposited data

How the results depend on the processing

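No member passed the threshold under any of the 11 refits tried. Adjusted p came closest for SWD1 and SET2 without array 4 (0.053 and 0.063) and for SPP1 with a dye term (0.069). The means of SWD1, SWD2, SPP1 and SET2 kept their sign in all 12 alternatives, from -0.58 to -0.26, from -0.27 to -0.07, from 0.32 to 0.45 and from 0.33 to 0.53. SET1 stayed between -0.07 and 0.01, above 0 only without array 3. The median of the tested members, without 1 array at a time, lay between -0.07 and 0.01. With genes of 2 or more values, BRE2 and SWD3 had adjusted p of 0.453 and 0.608 in limma. The count of all genes past the threshold, 410, was 897 with a dye term and 685 with array weights, and without 1 array at a time it ran from 0 (without array 2, with 815 at an unadjusted p under 0.05) to 677 (without array 4). It was 54 without array 1 and 187 without array 3. Of the listed genes other than members, 2 passed; there were 9 with a dye term, 6 with array weights and, leaving out 1 array at a time, 0 to 5. RAD6 and HHF2 lost their calls without array 1, without array 2 and without array 3 and kept them in the other 8 refits; the cause was not tested. No paired analysis was possible because each array is already a ratio of the 2 strains and all arrays make 1 group.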

Other observations

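BUR2, which encodes the cyclin of a kinase that promotes H2B ubiquitination and Set2 activity during elongation, was singled out after its values were seen. Its log2 ratios were 2.79 and 1.83 on arrays 1 and 3, with bre1 RNA in Cy3, and -0.57 and -3.04 on arrays 2 and 4, with bre1 RNA in Cy5. Its SD over arrays, 2.61, was the largest of the 3840 genes tested. The dye difference, Cy5 minus Cy3, was -4.11 (unadjusted p = 0.0004, adjusted p = 0.083 in limma with a dye term), and the mean of 0.25 says little of either strain.

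HSL7, a protein methyltransferase gene named here after its values were seen, was below 0 on all 4 arrays, with log2 ratios of -0.60, -0.62, -0.49 and -0.31 and a mean of -0.51 ± 0.14 (SD, n = 4, adjusted p = 0.057 in limma). It passed in 4 of the 11 refits.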
